A study of Mus musculus with 6 samples.

Results

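Spermatogonia are the mitotic germ cells at the base of the seminiferous tubule, and 31 genes that mark or regulate them were examined in heat-exposed mouse testis. They were taken as the array probes whose gene name was one of a list of spermatogonial genes, with the brightest probe standing for each gene. Of the 25276 genes tested, these were 31, and all 31 passed the filter on dim probes. The list was separated into 22 stem-cell genes, 7 genes of differentiating spermatogonia and 2 genes placed in neither (Dazl and Upp1). The samples were 3 testes of B6.MRLc1 mice and 3 testes of B6 mice. B6.MRLc1, in full B6.MRLc1-(D1Mit202–D1Mit403), is a congenic strain on the C57BL/6 background whose telomeric part of chromosome 1, from 67.97 to 81.63 cM, comes from MRL mice. B6 is wild-type C57BL/6. Mice of both strains were males of 3 months, and both had been given 1 exposure of the scrotum to 43 °C for 20 min, 10 days before the testes were taken. With no unheated testes among the arrays used here, the values compare strains after heat and say nothing of the response to it. None of the 31 genes has its probe on chromosome 1 (0 of 31), the chromosome that carries the congenic segment.

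In the mouse, a small pool of stem-cell spermatogonia is kept by glial cell line-derived neurotrophic factor (GDNF), which Sertoli cells secrete and which signals through the receptor Ret and its co-receptor Gfra1 to transcription factors such as Etv5, Bcl6b, Id4 and Lhx1. Retinoic acid moves these cells into differentiation: they begin to depend on the receptor Kit, switch on Sohlh1, Sohlh2, Stra8 and Dmrtb1, and later enter meiosis as spermatocytes. Spermatocytes then give round and elongating spermatids, the cells that follow meiosis.

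The promoters of 3 differentiating-cell genes are shown because 1 of them, Dmrtb1, was the member that passed the test, and the other 2, Stra8 and Sohlh1, belong to the same step and did not. They are RefSeq promoters on assembly GRCm38.p6, written 5′ to 3′, each a window of 300 bases across the start of the gene, and Dmrtb1 has 2 annotated starts. Capitals mark the letters of 2 motifs searched on both strands: the E-box CANNTG, which reads the same on either strand and is the kind of site that basic helix-loop-helix proteins such as Sohlh1 bind, and the retinoic acid receptor half-site AGGTCA or TGACCT.
Dmrtb1 start 1, chr4:107683540-107683839, minus strand: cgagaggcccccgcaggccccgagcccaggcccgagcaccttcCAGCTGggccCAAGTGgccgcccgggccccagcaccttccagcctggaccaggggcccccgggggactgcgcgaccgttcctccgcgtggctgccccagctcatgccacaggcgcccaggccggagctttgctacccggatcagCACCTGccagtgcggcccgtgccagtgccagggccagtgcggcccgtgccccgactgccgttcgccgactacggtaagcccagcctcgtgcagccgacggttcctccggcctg
Dmrtb1 start 2, chr4:107684181-107684480, minus strand: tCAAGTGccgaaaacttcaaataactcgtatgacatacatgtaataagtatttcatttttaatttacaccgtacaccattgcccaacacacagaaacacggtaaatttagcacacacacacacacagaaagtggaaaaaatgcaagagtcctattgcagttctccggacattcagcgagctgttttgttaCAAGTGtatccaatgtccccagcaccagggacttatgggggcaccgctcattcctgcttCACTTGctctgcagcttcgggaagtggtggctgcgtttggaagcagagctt
Stra8, chr6:34920698-34920997, plus strand: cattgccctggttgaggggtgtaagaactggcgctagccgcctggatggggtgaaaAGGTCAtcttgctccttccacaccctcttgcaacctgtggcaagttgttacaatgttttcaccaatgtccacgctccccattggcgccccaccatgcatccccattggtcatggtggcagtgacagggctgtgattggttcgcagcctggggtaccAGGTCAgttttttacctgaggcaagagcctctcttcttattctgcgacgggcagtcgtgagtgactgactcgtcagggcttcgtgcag
Sohlh1, chr2:25847199-25847498, minus strand: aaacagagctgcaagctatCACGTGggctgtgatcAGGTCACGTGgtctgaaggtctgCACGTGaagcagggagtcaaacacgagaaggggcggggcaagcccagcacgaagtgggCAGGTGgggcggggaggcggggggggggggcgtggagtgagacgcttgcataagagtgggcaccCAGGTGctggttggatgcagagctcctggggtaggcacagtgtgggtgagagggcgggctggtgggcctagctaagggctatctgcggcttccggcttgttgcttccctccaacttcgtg
Each of the Dmrtb1 windows held 3 E-boxes and 0 half-sites. The Stra8 window held 2 half-sites and 0 E-boxes, and the Sohlh1 window held 5 E-boxes and 1 half-site, which overlaps an E-box. Among 32851 promoters of the same length, 72.3% held an E-box and 16.3% a half-site. For 22 of the 31 members a promoter was matched, 28 promoters in all, of which 19 held an E-box and 5 a half-site. A match to so short a motif is a description of the letters only.

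Of the spermatogonial genes, Dmrtb1 was lower in B6.MRLc1 testes, and no other gene was called. Across all genes 2.63% were called at an adjusted p under 0.05 by limma, 0.404% higher and 2.22% lower in B6.MRLc1. Of the 31 members 1 was called lower and 0 higher, a share near that of all genes. All differences are the B6.MRLc1 mean minus the B6 mean, in log2 of the signal divided by the 75th percentile of its array. A fitted difference below 0 was found for 11 of the 31 members, against 46% of all genes. In whole tissue, fewer cells of a type and less RNA per cell cannot be told apart. Of the 30 members not called, the 95% interval of the difference lay within 2-fold either way for 27 and within 1.5-fold either way for 21. The 3 B6.MRLc1 values and the 3 B6 values did not overlap for 5 members, or 16.1%, against 28.6% of all genes. Of these, Kit, Itga6 and Nanos3 were higher on every B6.MRLc1 array (14.8% of all genes were), and Dmrtb1 and Dazl lower (13.8% of all genes). The standard errors of the members had a median of 0.115 and ran from 0.0587 to 0.550, against a median of 0.0939 over all genes. For 9 members with small differences (Gfra1, Lhx1, Nanos2, Pax7, Pou5f1, Sohlh1, Stra8, Taf4b and Thy1) the sign changed under at least 1 processing alternative.

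**Figure D1:**
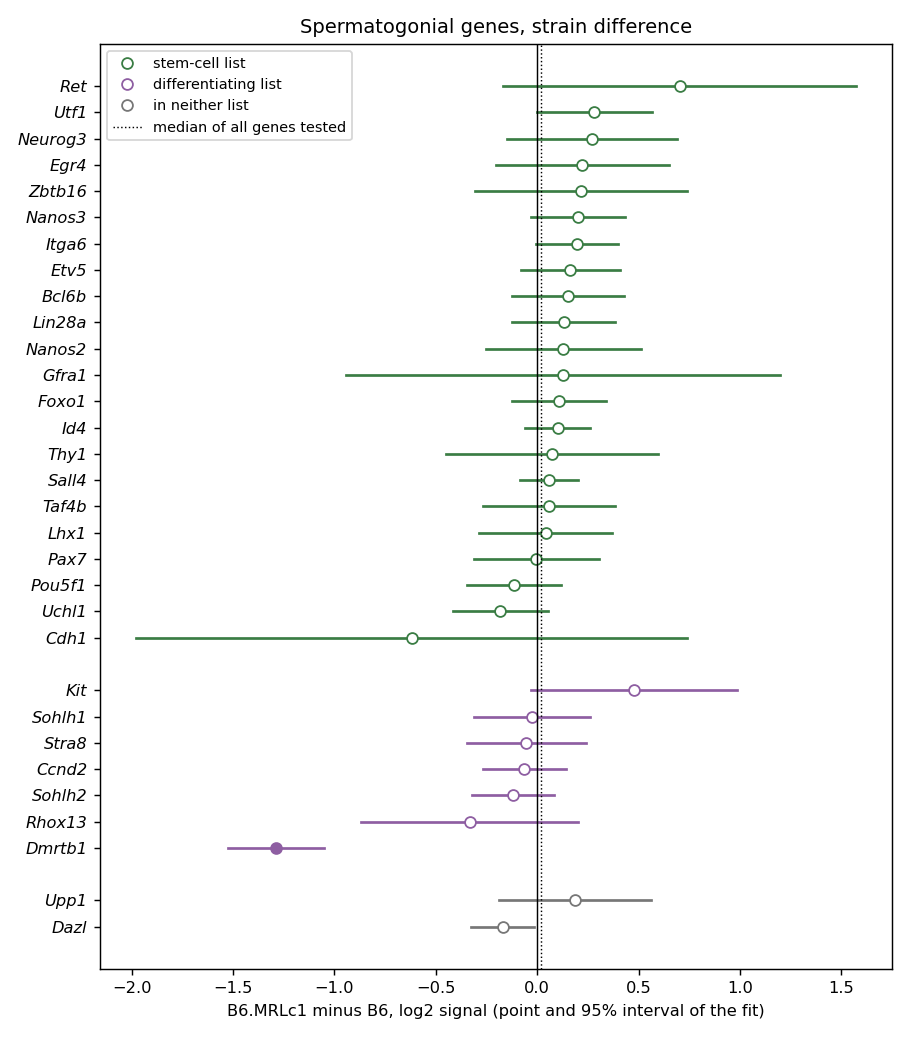
Fitted difference of each of the 31 genes, B6.MRLc1 minus B6 in log2 signal, with its 95% interval (n = 3 arrays per strain). The filled point, Dmrtb1 at -1.29, is the gene called at an adjusted p under 0.05, and the widest intervals are those of Cdh1, Gfra1 and Ret.

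The arrays set limits of their own. On the B6.MRLc1 arrays 58.0% to 64.7% of spots were well above background, and on the B6 arrays 68.6% to 69.0%, and the scanner's additive error was 3.38 to 5.68 intensity units on the B6.MRLc1 arrays and 2.66 to 3.14 on the B6 arrays. The B6.MRLc1 arrays lay in row 2 of the slide and the B6 arrays in row 1, so that the row of the slide cannot be told apart from the strain. Of the members 27 were well above background on all 6 arrays, and Cdh1, Gfra1, Pax7 and Pou5f1 on 5, with 2 of 3 in B6.MRLc1. The testis carried markers of its other cells: 12 of 12 Sertoli cell genes were measured, with a summed level on the linear scaled signal of 904 to 941 in B6.MRLc1 and 854 to 937 in B6, and 0 were called by limma (2 had an unadjusted p under 0.05). Of 12 round spermatid genes 7 were called lower, against 2.22% of all genes, and 10 had a lower signal at an unadjusted p under 0.05. The summed level of the 12 was 2.15 to 2.29 in B6.MRLc1 and 4.16 to 5.15 in B6. Of those called, Catsper1 was well above background on 0 of 3 B6.MRLc1 arrays, so it entered the count through the B6 arrays alone. Spaca7 was well above background on 1 of 3 B6.MRLc1 arrays, and the fitted sizes of both genes depend on values near background. Of 10 elongating spermatid genes 1 was called lower, Odf4, which was well above background on 1 of 3 B6.MRLc1 arrays. All 10 were lower without overlap and at an unadjusted p under 0.05, and of these Prm3 and Odf1 were also well above background on 1 of 3 B6.MRLc1 arrays. Their summed level was 2.18 to 6.56 in B6.MRLc1 and 14.5 to 45.1 in B6. Spermatocyte genes had a median difference of -0.06, with 2 of 14 called, both lower (Ldhc at -3.18 and Rec8 at -0.52). Of the 14, 5 were lower without overlap and at an unadjusted p under 0.05, which 11.1% of all genes had with a lower signal. Adipocyte markers summed to 6.76 to 13.6 in B6.MRLc1 and 3.69 to 6.12 in B6, with 0 of 5 called (4 had an unadjusted p under 0.05). The part of these cells in the values that follow was not tested.

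Dmrtb1 encodes DMRT6, a DM-domain transcription factor that in the mouse coordinates the exit of spermatogonia from mitosis and their entry into meiosis. On B6.MRLc1 arrays 1, 2 and 3 its log2 signal was -2.68, -2.45 and -2.67, against -1.32, -1.42 and -1.19 on the B6 arrays. The 3 B6.MRLc1 values were all more than 1 log2 unit below the lowest B6 value, and the means were -2.60 ± 0.13 for B6.MRLc1 and -1.31 ± 0.11 for B6 (SD, 3 arrays of each). The difference was -1.29 (SE 0.10), a 2.44-fold lower signal in B6.MRLc1 (limma adjusted p = 0.0117). Its single probe maps to chromosome 4, 107349326 to 107349385 on mm9, and was well above background on every array. Without B6 replicate 1 the difference was -1.29 but missed the threshold (limma adjusted p = 0.055), and with normexp background correction it was -0.91. Spermatid markers were lower in the same testes, as given above.

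None of the other 6 differentiating genes was called. Kit, the receptor for stem cell factor on which differentiating spermatogonia depend, had log2 signals of 2.75, 3.55 and 2.97 in B6.MRLc1 and 2.57, 2.61 and 2.65 in B6. Each B6.MRLc1 value exceeded each B6 value, with B6.MRLc1 replicate 2 the highest. The difference was 0.48 (SE 0.21, limma adjusted p = 0.268), and 0.25 without that replicate. Kit has 1 probe (chromosome 5, 76052394 to 76052453 on mm9). Mouse spermatids make a truncated Kit transcript from an intronic promoter, and whether this probe reads it was not tested. Stra8, which retinoic acid induces before meiosis, had values of 3.08, 2.86 and 3.24 in B6.MRLc1 and 3.26, 3.03 and 3.05 in B6. The groups overlapped, with a difference of -0.05 (95% interval -0.35 to 0.24, limma adjusted p = 0.828).

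Sohlh1 and Sohlh2 are partner transcription factors that drive spermatogonial differentiation. Sohlh1 averaged 1.82 ± 0.14 in B6.MRLc1 and 1.84 ± 0.17 in B6, and Sohlh2 averaged -1.32 ± 0.12 in B6.MRLc1 and -1.20 ± 0.08 in B6 (SDs of 3 arrays). Their differences were -0.03 and -0.12 (limma adjusted p = 0.916 and 0.45). The Sohlh1 difference was smaller than both SDs, and the Sohlh2 difference exceeded both but missed the threshold. Ccnd2, cyclin D2, a cell-cycle regulator that appears as spermatogonia start to differentiate, differed by -0.06 (adjusted p = 0.7). Rhox13, an X-linked homeobox gene of germ cells, had values of -0.31, -0.19 and 0.24 in B6.MRLc1 and 0.10, 0.02 and 0.63 in B6. Replicate 3 was the highest in both strains, the groups overlapped, and the difference was -0.33 (SE 0.22, limma adjusted p = 0.436). In all, 1 of the 7 differentiating genes was called lower, against 2.22% of all genes, and 0 higher. A fitted difference below 0 was found for 6 of the 7, against 46% of all genes, and their median was -0.06, against 0.02 over all genes. That median was -0.04 without B6.MRLc1 replicate 2 and -0.14 without B6.MRLc1 replicate 3, and -0.11 and -0.095 without B6 replicates 1 and 2.

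**Figure D2:**
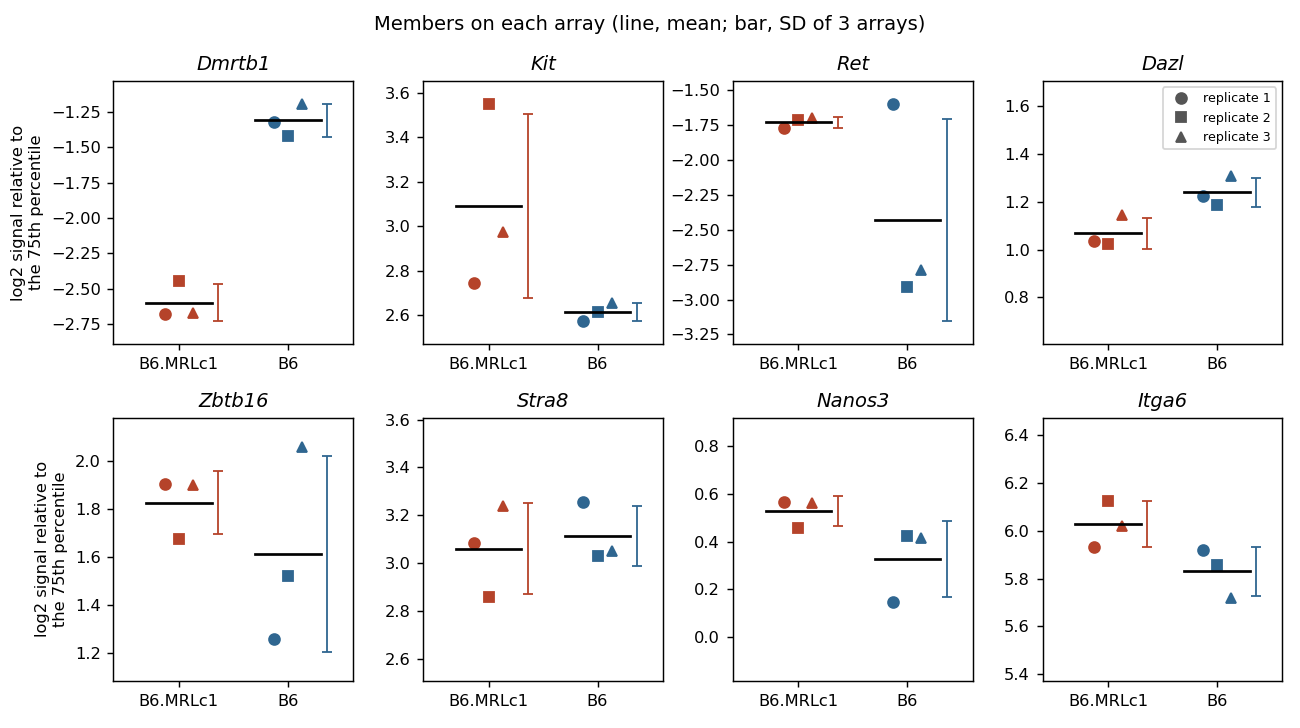
Log2 of the signal over its array's 75th percentile for 8 genes on each array, with the mean (line) and SD of 3 arrays (bar) for B6.MRLc1 and B6. Dmrtb1 separates the strains by more than its spread, the mean of Kit is raised in B6.MRLc1 by replicate 2 at 3.55, and the mean of Ret in B6 is spread by replicate 1 at -1.60. Axes are set per gene and do not start at 0.

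No stem-cell gene was called between the strains, 0 of 22 in either direction. In the fit as reported 0 of them had an unadjusted p under 0.05 by limma either, which 20.3% of all genes had. Under some alternatives stem-cell genes did, such as Etv5, Itga6 and Ret (higher) and Uchl1 (lower) with array weights. Of the 22, 18 had a fitted difference above 0 and 20 lay within 0.3 of 0 on the log2 scale. That is 81.8% above 0, against 54.0% of all genes, and the list's median was 0.13, against 0.02 over all genes. The array values of the list, each the median of how far its genes lay from their own means of 6 arrays, were 0.01, 0.05 and 0.13 in B6.MRLc1 and -0.12, -0.01 and -0.01 in B6. The B6.MRLc1 values all lay above the B6 values, and B6 replicate 1 was the lowest: 12 of the 22 genes had their lowest B6 value on it. Without B6 replicate 1 the median was 0.065. On leaving out 1 array the number of the 22 above 0 ran from 15 to 19. It was 15 without B6 replicate 1, without B6 replicate 3 and without B6.MRLc1 replicate 2. Sertoli cell genes had a median difference of 0.10 and their lowest array value on the same B6 array, -0.15. Of the 12 Sertoli cell genes 10 lay above 0 and 2 below, and 2 had an unadjusted p under 0.05 by limma. For 4 the groups did not overlap with B6.MRLc1 higher (14.8% of all genes), and for 1 with B6.MRLc1 lower (13.8%). The 6 peritubular myoid cell genes had a median of 0.17, with 6 of 6 above 0 and 3 at an unadjusted p under 0.05 by limma. For 4 of the 6 the groups did not overlap, with B6.MRLc1 higher, as for 14.8% of all genes. The 6 Leydig cell genes tested had a median of 0.15, with 4 of 6 above 0 and 2 at an unadjusted p under 0.05. Endothelial and macrophage genes lay below 0 in the median, at -0.04 and -0.17. Of these Sertoli, myoid and Leydig genes 0 were called by limma, and the part of these cells in the stem-cell median was not tested.

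The receptor genes of the GDNF pathway were among the least precise. Ret, the signalling receptor, had log2 signals of -1.77, -1.72 and -1.70 in B6.MRLc1 and -1.60, -2.91 and -2.79 in B6. B6 replicate 1 sat above all B6.MRLc1 arrays and the other 2 B6 arrays below them by more than 1 log2 unit. The difference was 0.70 (SE 0.35, limma adjusted p = 0.329). Without B6 replicate 1 it was 1.12 and passed the threshold (limma adjusted p = 0.0324), so that 1 array decides the call. Gfra1, the GDNF co-receptor, was near background, at -5.48, -4.13 and -4.54 in B6.MRLc1 and -5.15, -4.18 and -5.19 in B6. The groups overlapped fully, and the interval of the difference of 0.13 ran from -0.94 to 1.20 (limma adjusted p = 0.892), wider than 1.5-fold either way.

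**Figure D3:**
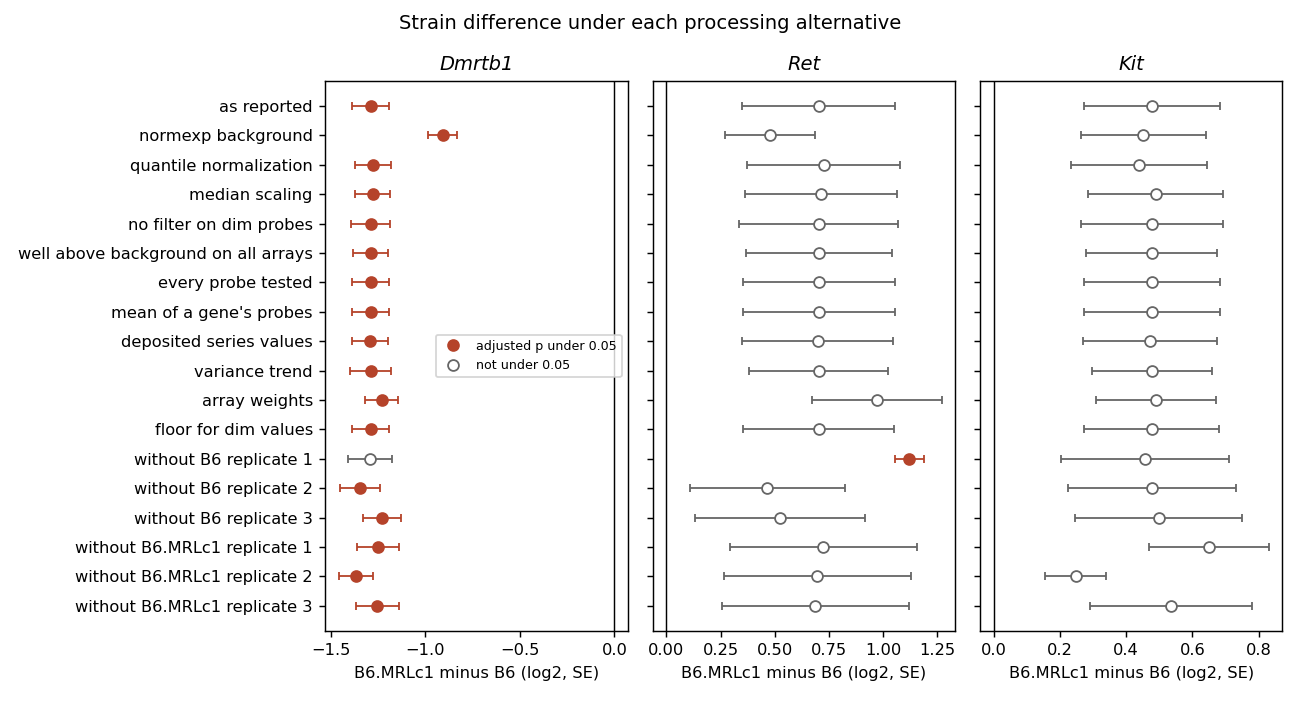
Difference of Dmrtb1, Ret and Kit, B6.MRLc1 minus B6 in log2 signal with the SE of the fit, as reported and under the processing alternatives other than the replicate block, which is not plotted and under which 0 members were called. Filled points pass an adjusted p under 0.05: among the settings plotted, Dmrtb1 passes in all but the one without B6 replicate 1, Ret passes in that one only, at 1.12, and Kit passes in none.

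None of the transcription factors tied to renewal of the stem cells was called. Etv5, an ETS factor needed for stem-cell renewal in the mouse, had values of 4.37, 4.36 and 4.60 in B6.MRLc1 and 4.25, 4.18 and 4.42 in B6. The groups overlapped, with a difference of 0.16 (95% interval -0.08 to 0.41, limma adjusted p = 0.408). Bcl6b, a transcriptional repressor, differed by 0.15, Egr4, an early growth response factor, by 0.22, Id4, an inhibitor of helix-loop-helix factors that marks stem cells, by 0.10, and Lhx1, a LIM homeobox factor, by 0.04. Their limma adjusted p-values were 0.49, 0.509, 0.427 and 0.883. Id4 was the tightest of these, at 0.49 ± 0.02 in B6.MRLc1 and 0.38 ± 0.09 in B6 (SDs of 3 arrays).

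The nuclear markers of undifferentiated spermatogonia also missed the threshold. Zbtb16, or PLZF, a zinc-finger repressor that maintains the stem cells, had values of 1.91, 1.68 and 1.90 in B6.MRLc1 and 1.26, 1.52 and 2.06 in B6. The B6 arrays spanned more than the whole B6.MRLc1 range, and the difference was 0.21 (SE 0.21, limma adjusted p = 0.601). Sall4, a partner of Zbtb16, averaged -0.97 ± 0.07 in B6.MRLc1 and -1.03 ± 0.03 in B6, and its second bright probe differed by 0.08. Foxo1, a forkhead factor needed to maintain the stem cells, had values of 2.15, 2.23 and 2.28 in B6.MRLc1 and 1.93, 2.18 and 2.21 in B6. B6 replicate 1 was the lowest, the difference was 0.11 (limma adjusted p = 0.547), and the second Foxo1 probe differed by 0.03. Utf1, a chromatin-bound factor of undifferentiated cells, differed by 0.28 (SE 0.11, limma adjusted p = 0.252). Neurog3, a helix-loop-helix factor of cells about to differentiate, was counted in the stem-cell list and differed by 0.27 on the brighter of its 2 probes. Taf4b, a germ-cell subunit of the TFIID complex, differed by 0.06. Pax7, a paired-box factor of rare spermatogonia, differed by -0.0041, and Pou5f1, the pluripotency factor OCT4, by -0.11. The limma adjusted p-values of these 4 were 0.421, 0.838, 0.989 and 0.529. The dimmer Neurog3 probe was well above background on 1 array alone and was not tested. Pax7 and Pou5f1 were dim, with means of -4.53 and -4.45 in B6.MRLc1 and -4.52 and -4.33 in B6.

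Of the RNA-binding regulators, Nanos3 was higher on every B6.MRLc1 array, at 0.57, 0.46 and 0.56, against 0.15, 0.42 and 0.41 in B6, and the lowest B6.MRLc1 and highest B6 values were close. The difference was 0.20 (SE 0.09, limma adjusted p = 0.3). Nanos2, a translational repressor that keeps the stem-cell state, differed by 0.13 (adjusted p = 0.674), and Lin28a, which blocks let-7 microRNA maturation, by 0.13 (adjusted p = 0.51). Dazl, a translational activator of germ cells, ran the other way, at 1.04, 1.02 and 1.14 in B6.MRLc1 and 1.22, 1.19 and 1.31 in B6. Every B6.MRLc1 value was below every B6 value. The difference of -0.17 (SE 0.06) had an unadjusted p of 0.0371 by limma, a value under 0.05 being reached by 20.3% of all genes in either direction and 11.1% in this one, and missed the threshold after adjustment (0.215). Besides Dmrtb1 it was the only member with an unadjusted p under 0.05 in the fit as reported.

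No surface or cytoplasmic marker was called. Itga6, integrin alpha 6, by which spermatogonia hold to the basement membrane, had values of 5.93, 6.13 and 6.02 in B6.MRLc1 and 5.92, 5.86 and 5.72 in B6. The groups narrowly did not overlap on this probe, with a difference of 0.20 (SE 0.08, limma adjusted p = 0.26). A second Itga6 probe 3′ of it differed by 0.03 with overlapping groups. Uchl1, a ubiquitin hydrolase, was lower in mean, at 2.24, 2.01 and 2.04 in B6.MRLc1 and 2.40, 2.29 and 2.16 in B6. The groups overlapped, and the difference was -0.18 (SE 0.09, limma adjusted p = 0.347). Cdh1, E-cadherin, had the widest error of the members, at -4.75, -2.99 and -4.66 in B6.MRLc1 and -3.71, -2.88 and -3.95 in B6. Replicate 2 was by far the highest in both strains, and the difference of -0.62 had an interval from -1.98 to 0.74. On leaving out 1 array it ran from -1.19, without B6.MRLc1 replicate 2, to -0.30, without B6 replicate 2, and with normexp background correction it was -0.11. Thy1, a surface glycoprotein that T cells also carry, differed by 0.07 (adjusted p = 0.869), and 0 of 4 T cell markers tested were called, 0 also at an unadjusted p under 0.05. Upp1, uridine phosphorylase, differed by 0.19 (adjusted p = 0.529).

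Niche and signalling genes around the stem cell were examined as a further list, and 0 of 27 measured were called by limma in either direction (4 had an unadjusted p under 0.05 with a higher signal and 2 with a lower one), with a median difference of 0.03. The 4 with the smallest p were Mycn, Foxc2, Pou3f1 and Nrtn. Mycn, a MYC-family factor that GDNF induces in cultured mouse stem cells, had values of 0.81, 0.83 and 0.88 in B6.MRLc1 and 0.03, 0.45 and 0.33 in B6. The groups did not overlap, and the difference was 0.57 (SE 0.12, limma adjusted p = 0.0695). Foxc2, a forkhead factor of quiescent spermatogonia in the mouse, differed by 0.35, Pou3f1, a POU factor downstream of GDNF, by -0.34, and Nrtn, the GDNF-family ligand neurturin, by -0.17 (limma adjusted p = 0.0855, 0.123 and 0.185). The niche ligands themselves, named here for their role rather than their rank, differed by 0.18 for Gdnf and 0.16 for Kitl, the ligand of Kit (limma adjusted p = 0.309 and 0.484).

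Of 18 measured genes of retinoic acid supply and response, 1 was called lower, against 2.22% of all genes, and 0 higher, against 0.404%. Their median was -0.06. The called gene was Crabp1, a cytoplasmic retinoic acid-binding protein. Its values were -0.58, -0.65 and -0.56 in B6.MRLc1 and 0.04, 0.08 and 0.27 in B6. The groups lay clear of each other, with a difference of -0.72 (SE 0.08, limma adjusted p = 0.0225). This call was lost on leaving out any 1 array other than B6 replicate 3, with differences of -0.77 to -0.65 and adjusted p-values up to 0.0721, and without the filter on dim probes (0.0566). Rarb, a retinoic acid receptor, was at -0.89 (adjusted p = 0.0605, and -0.35 with normexp background correction), Cyp26b1, which degrades retinoic acid, at 0.54 (0.0991), and Aldh1a1, which makes it, at 0.22 (0.126), all by limma.

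Of other genes of spermatogonia, kept as a list of their own, 1 of 17 measured was called lower, against 2.22% of all genes. None was called higher, against 0.404%, and the median was -0.15. Epcam, an epithelial adhesion molecule of germ cells and epithelia, was at -2.23, -2.38 and -2.49 in B6.MRLc1 and -1.56, -1.68 and -1.89 in B6. The groups did not overlap, and the difference was -0.66 (SE 0.11, limma adjusted p = 0.0479), at the edge of the threshold. Leaving out any 1 array other than B6 replicate 3 took the adjusted p to between 0.0953 and 0.158, and median scaling to 0.0509. Over all 18 alternatives the adjusted p ran from 0.0205 to 0.158, and the difference from -0.75 to -0.41. Lin28b, a relative of Lin28a, was at -0.34 (adjusted p = 0.102), Ddx4, the germ-cell helicase VASA, at -0.26 (0.127), and Ccnd3, cyclin D3, at 0.32 (0.154).

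**Figure D4:**
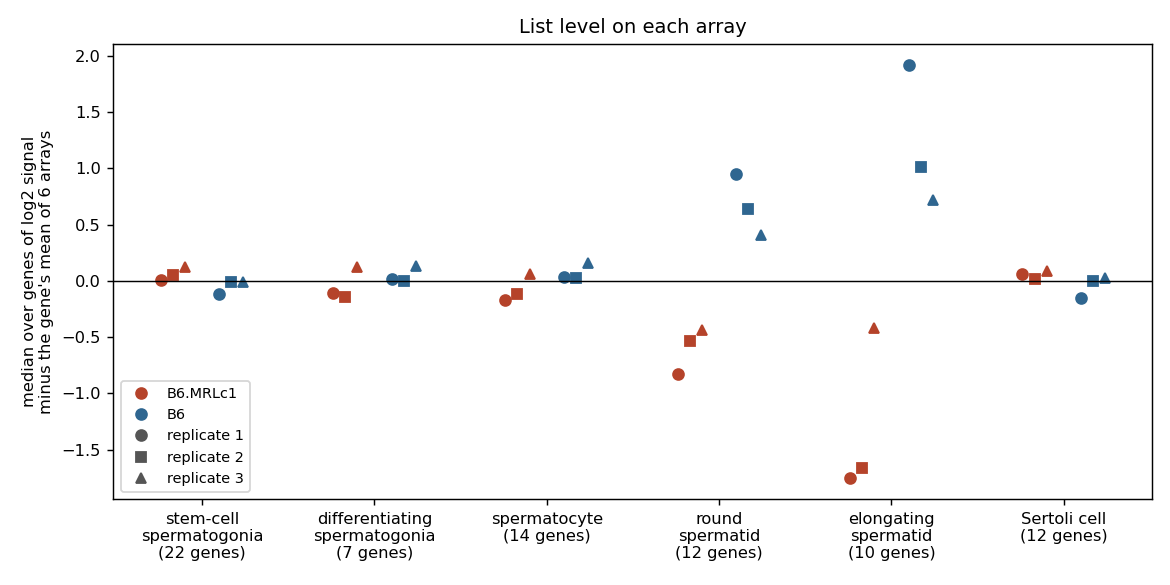
Median over the genes of each list of the log2 signal minus the gene's mean over 6 arrays, for each array of B6.MRLc1 and B6. Both spermatogonial lists lie within 0.14 of 0 on all arrays, whereas the elongating spermatid list spans -1.75 to 1.92.

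The array values of the germ-cell lists can be set side by side. On the B6.MRLc1 arrays the array values of the differentiating list were -0.10, -0.14 and 0.12, and on the B6 arrays 0.02, -0.01 and 0.13, so that the groups overlapped. The spermatocyte list had -0.17, -0.11 and 0.06 in B6.MRLc1 and 0.03, 0.03 and 0.16 in B6, also overlapping. The round spermatid list had -0.82, -0.53 and -0.43 in B6.MRLc1 and 0.95, 0.63 and 0.41 in B6, which were well apart. Replicate 3 was the highest B6.MRLc1 array for all 4 of the germ-cell lists from differentiating spermatogonia to elongating spermatids. It was also the highest for the stem-cell list, at 0.13. The difference between the lists' shifts was not tested.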

How the data were processed

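Total RNA of 6 heat-exposed testes was labelled with Cy3 from 0.1 ug and hybridised to one-colour Agilent arrays, per the labels' protocols. The deposited scanner tables hold linear intensity, already background-subtracted per the file headers but unscaled, with flags for spots well above background, saturated spots (0 here) and outliers. Feature Extraction is given as version 10.7.3.1 in the headers and 9.5.3 in the submitters' processing notes. How the authors' deposited series table of log2 values was made is not given in the sources. Its columns were 57.0% to 68.3% filled. For probes with a value on all 6 arrays, at least 99.9% of entries matched, within 0.05, the scaled log2 signal centred on each probe's median. Scale, centring and direction are thus known for those probes. Its column medians were 0.0047, 0.0099 and 0.016 for B6.MRLc1 and -0.003, -0.0041 and 0.014 for B6. It served as an alternative.

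Control and outlier spots were dropped, signals were divided by the array's 75th percentile (557 to 605 in B6.MRLc1, 581 to 670 in B6) and log2 was taken. A probe was kept with values on at least 4 arrays and over 0.5 of its spots well above background on at least 3, which left 36627 of 55681. The brightest probe stood for a gene: 25 members had 1 probe, 5 had 2 and 1 had 3. A RefSeq table of GRCm38.p6 named 27235 probes by accession. Probe positions are the array's own, on mm9, and exons were not used here.

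Strains were compared with limma 3.58.1 in R 4.3.3 on all genes (lmFit, eBayes, Benjamini-Hochberg), after tests on simulated data. The series gives 3 mice per strain, and precision is limited by that number of arrays. Members and lists were chosen with earlier results of these data known, so list medians are descriptions without a test. All members are named, and of the 3 further lists each called gene and the 4 with the smallest p. Alternatives covered background correction, scaling, filter, probe choice, a floor, array weights, a variance trend, a replicate block, the deposited values and leaving out each array.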

Additional observations from a re-analysis of the deposited data

Results flagged for a closer look

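A dimmer second Neurog3 probe, which the comparison did not use, was well above background on B6.MRLc1 replicate 1, at -2.47, and on no other array: it read -7.12 and -7.42 on the other 2 B6.MRLc1 arrays and -7.77, -7.88 and -7.81 on the B6 arrays. The brighter Neurog3 probe showed no such value, at 0.27, 0.24 and 0.61 in B6.MRLc1 and -0.18, 0.13 and 0.36 in B6. What the single bright reading stands for was not tested.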

How the results depend on the processing

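Genes called numbered 664 as reported, 50 without the filter on dim probes, 440 with the deposited values, 1607 with array weights, 1202 with a variance trend and 50 to 486 on leaving out 1 array: 83, 58 and 318 without B6.MRLc1 replicate 1, 2 and 3, and 50, 169 and 486 without B6 replicate 1, 2 and 3. Correlations of deviations between same-numbered arrays were -0.04, 0.17 and 0.09 for replicates 1, 2 and 3. Those of replicates 2 and 3 were the highest for their arrays, and that of replicate 1 was not. The replicate number was also the slide column in both strains, and whether the arrays pair was not tested. With the replicate number as a block, which leaves 2 residual degrees of freedom, 0 genes and 0 members were called by limma. Under it Dmrtb1 had an adjusted p of 0.0919, and 6 members had an unadjusted p under 0.05. In every other alternative 1 member was called, Dmrtb1, except without B6 replicate 1, where it was Ret. Over 18 alternatives Dmrtb1 measured -1.36 to -0.91, with an adjusted p of 0.0045 to 0.0919. The stem-cell median was 0.065 to 0.16 on leaving out 1 array, the lowest without B6 replicate 1. Of 31 members 22 kept their direction in every alternative that tested them and 9 did not (18 alternatives, but 17 for Cdh1, Gfra1, Pax7 and Pou5f1, which are dropped where all arrays must be well above background), each with a fitted difference that missed the threshold. With array weights Gfra1 measured -0.16, Thy1 -0.11, Sohlh1 0.00501 and Stra8 0.013. Pax7 measured 0.105 with normexp, 0.030 with quantile normalization, 0.00696 with median scaling, 0.018 with the deposited values and 0.026 with a floor, and Pou5f1 0.11 with normexp. On leaving out 1 array Gfra1 ran from -0.17 to 0.51, Lhx1 from -0.0633 to 0.14, Nanos2 from -0.0371 to 0.25, Pax7 from -0.0859 to 0.12, Sohlh1 from -0.11 to 0.0633, Stra8 from -0.14 to 0.0475, Taf4b from -0.0407 to 0.16 and Thy1 from -0.15 to 0.22. The cause was not tested. Signal over background limits Cdh1, Gfra1, Pax7 and Pou5f1. Some named genes of the 3 further lists that were not called as reported passed the threshold in at least 1 alternative. Their lowest limma adjusted p was 0.03 for Mycn, 0.0234 for Rarb, 0.0428 for Cyp26b1, 0.0447 for Lin28b and 0.0449 for Pou3f1. In the same order the highest was 0.177, 0.182, 0.221, 0.275 and 0.313.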
